A study of Mus musculus with 22 samples.

Results

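Cation-chloride cotransporters, GABA transporters and the chloride channel gene Clcn2 were read in the hippocampus of TgproNGF#3 mice and WT mice. The members were chosen by name, as every non-control probe whose RefSeq transcript belongs to Slc12a2, Slc12a4, Slc12a5, Slc12a7, Slc6a11, Slc6a12, Slc6a13 or Clcn2. They are 8 genes with 10 probes, out of 21154 genes with a symbol and 55681 probes on the array, and Slc12a5 and Clcn2 have 2 probes each. The TgproNGF#3 line carries a furin-resistant pre-proNGF cDNA, followed by an IRES-EGFP cassette, under the mouse Thy1.2 promoter, which drives expression in neurons, and it is a single transgenic founder line. Controls were WT mice of the same C57Bl/6xDBA/2 background without the transgene. Hippocampi of the right hemisphere, with no prior treatment, gave total RNA for 1 one-colour Agilent array per mouse. Males were taken at 1 and 3 months, with 4 TgproNGF#3 and 4 WT mice at each age, and females at 12 months, with 3 and 3. All arrays of an age shared 1 slide and no slide held arrays of another age. Comparisons across ages are therefore also comparisons across slides and, at 12 months, sexes, and these cannot be told apart.

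Between 57.6% and 80.3% of the non-control spots of an array were well above background, no non-control spot was saturated, and all 6 hippocampal neuron markers checked were well above background on all 22 arrays. At 12 months WT replicate 3 was the single control in slide row 2, with all 3 TgproNGF#3 arrays, while WT replicates 1 and 2 were in row 1. At 1 month TgproNGF#3 arrays filled columns 3 and 4 and WT arrays columns 1 and 2, so slide column and genotype cannot be told apart at that age. Expression levels below are log2 signals minus the 75th percentile of the spots kept on the same array, and Log2 FC is the TgproNGF#3 mean minus the WT mean on that scale. Probes differ in brightness, so a level is compared only with the same probe on other arrays.

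GABA opens chloride-permeable receptors, and the direction in which chloride then flows depends on how much of it the neuron holds. Slc12a2 encodes NKCC1, which carries chloride into cells with sodium and potassium, and Slc12a5 encodes KCC2, the potassium-chloride cotransporter of neurons that carries it out. Slc12a4 and Slc12a7 encode KCC1 and KCC4, relatives of KCC2 with a wide tissue distribution, and Clcn2 encodes the ClC-2 chloride channel. Slc6a11 encodes a GABA transporter of astrocytes, Slc6a12 the betaine and GABA transporter BGT1, and Slc6a13 the GABA transporter GAT2, known from liver, kidney and the leptomeninges.

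At 1 month no member passed a test in the fit without pairing. None of the 10 probes met the thresholds of the study (unadjusted p under 0.05 and a Log2 FC beyond 1 in size), which 0.57% of the 40536 probes tested at that age met. The unadjusted limma p was below 0.05 for 0 of 10 probes, against 3.47% of all probes, the Benjamini-Hochberg adjusted p was below 0.05 for none, against 0% of all probes, and the groups overlapped for all 10, against 3.32% of all probes whose groups did not. At 3 months 1 of 10 probes met the thresholds, the dimmer Slc12a5 probe, which was lower in TgproNGF#3 mice. At 12 months 2 of 10 did, Slc6a12 and Slc6a13, both lower. No member probe had an adjusted p below 0.05 at any age in the limma fit within an age. The median Log2 FC of the 10 probes was -0.01, 0.10 and -0.12 at 1, 3 and 12 months, beside 0.07, -0.12 and 0.01 for all probes tested.

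The backgrounds of these counts differed by age. At 3 months 6.76% of 33593 probes met the thresholds in either direction and 6.12% as lower, 27.2% had an unadjusted p below 0.05, 8.43% an adjusted p below 0.05, and 20.3% had groups that did not overlap. Among the members the corresponding numbers were 1, 1, 4, 0 and 3 of 10. At 12 months 1.3% of 34064 probes met the thresholds, 0.992% as lower, 9.05% had an unadjusted p below 0.05, 0% an adjusted p below 0.05, and 15.5% had groups that did not overlap. There the members gave 2, 2, 2, 0 and 2 of 10.

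**Figure D1:**
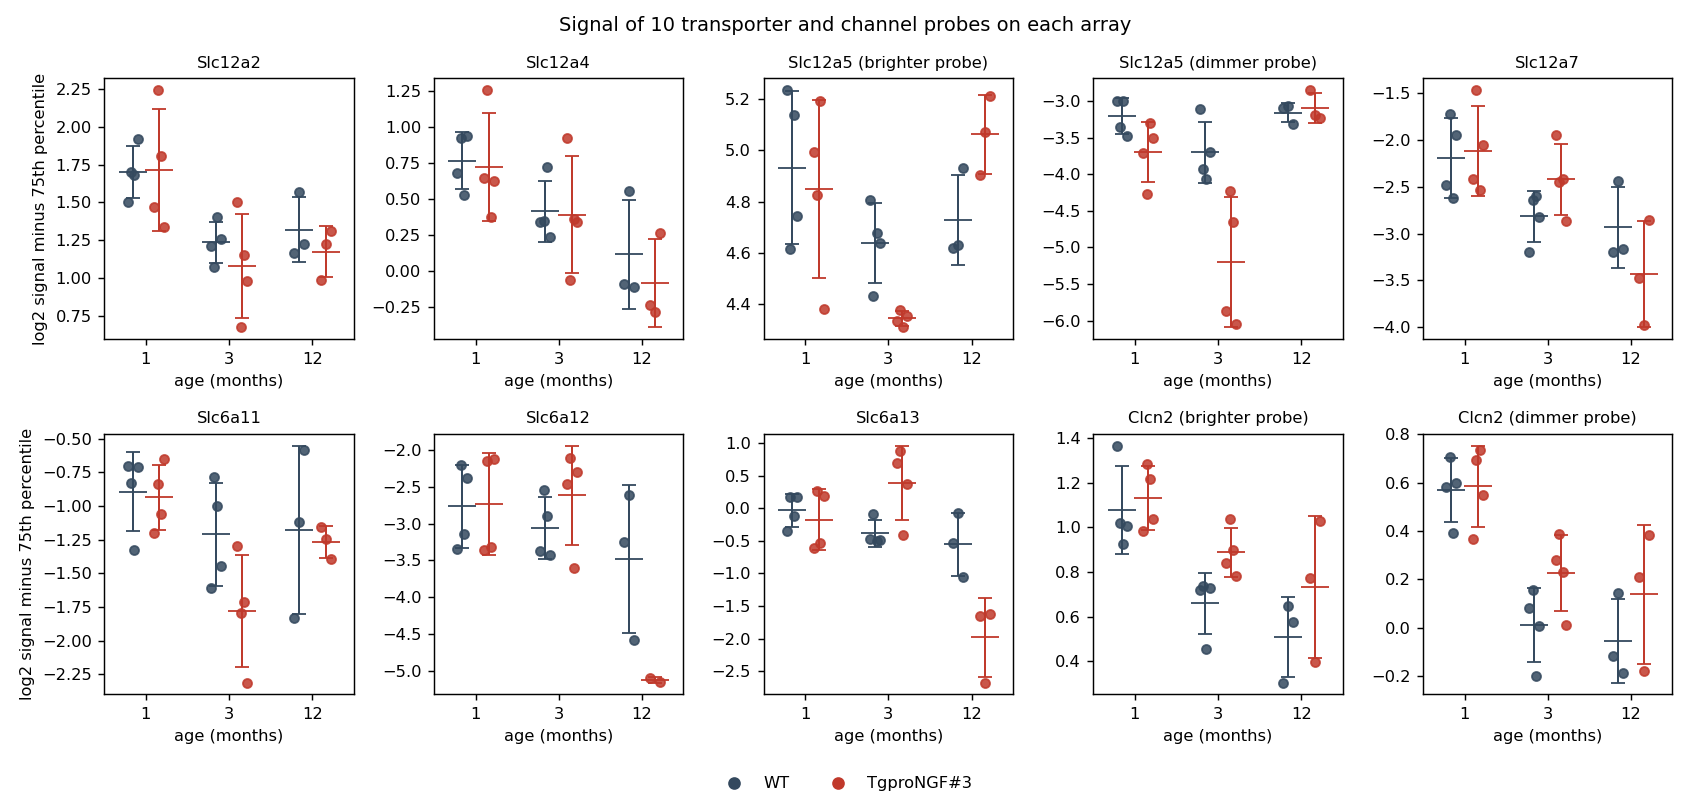
Level of each of the 10 probes on each array (vertical axis, log2 signal minus the 75th percentile of the array; the axis differs between panels) against age in months, with 1 point per mouse, a horizontal bar at the group mean and whiskers of 1 SD. Slc6a13 and Slc6a12 are lowest on the 12-month TgproNGF#3 arrays, and the dimmer Slc12a5 probe has its lowest group mean on the 3-month TgproNGF#3 arrays, where it runs from -6.04 to -4.24.

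**Figure D2:**
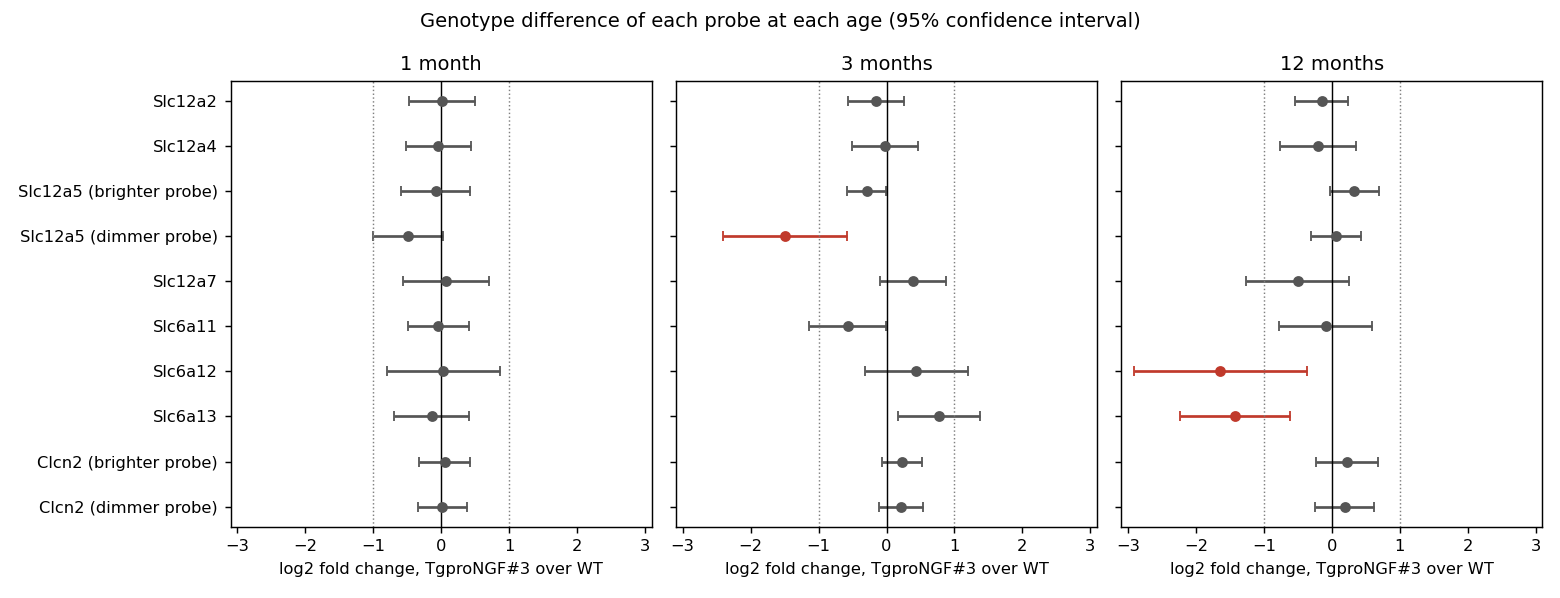
Log2 FC of TgproNGF#3 over WT (horizontal axis) for each probe at 1, 3 and 12 months, with its 95% confidence interval; dotted lines mark a Log2 FC of 1 and -1, and red marks probes with an unadjusted p below 0.05 beyond them. All 10 intervals include 0 at 1 month, and the 3 red probes are Slc12a5 (dimmer) at 3 months and Slc6a12 and Slc6a13 at 12 months.

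The GABA transporter gene Slc6a13 was lower in 12-month TgproNGF#3 mice than in age-matched WT mice. Its level was -1.65, -2.67 and -1.62 in the TgproNGF#3 mice and -0.54, -0.08 and -1.05 in the WT mice. All 3 TgproNGF#3 arrays lay below all 3 WT arrays. The Log2 FC was -1.42 with an SE of 0.35, a WT signal 2.68-fold that of TgproNGF#3 (unadjusted p = 0.0041, adjusted p = 0.549, limma). The exact two-sided permutation test gave p = 0.1, the smallest that 3 against 3 arrays allow. With slide row as a block, which compares the TgproNGF#3 arrays with the single WT array of their row, the Log2 FC was -0.92 and the unadjusted p 0.083, so the call was lost.

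At 3 months the same probe pointed the other way. The TgproNGF#3 levels were 0.70, 0.88, -0.41 and 0.37, and the WT levels -0.48, -0.08, -0.50 and -0.49. TgproNGF#3 replicates 1, 2 and 4 were above every WT array, and replicate 3 lay among them. The Log2 FC was 0.77 with an SE of 0.27 (unadjusted p = 0.017, adjusted p = 0.102, limma), and the exact two-sided permutation test gave p = 0.057. Without TgproNGF#3 replicate 3 the Log2 FC was 1.04 with an adjusted p of 0.013 in limma, past the thresholds of the study. At 1 month the TgproNGF#3 levels of -0.62, 0.26, -0.53 and 0.19 lay on both sides of the WT levels of -0.35, 0.18, -0.12 and 0.17, with a Log2 FC of -0.14 and a 95% confidence interval from -0.69 to 0.41.

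The genotype difference of Slc6a13 at 12 months was 2.19 log2 units below that at 3 months, with an SE of 0.44 (Log2 FC -1.42 against 0.77, difference -2.19, 95% confidence interval -3.12 to -1.27, adjusted p = 0.0053 in the limma fit of all 6 groups). It was the 1 member probe of 10 with an adjusted p below 0.05 for this contrast, against 4.52% of the 32420 probes tested. Slide row, with which the 12-month call was lost, was not used as a block in this contrast. Group means fell in the order TgproNGF#3 at 3 months (0.38), WT at 1 month (-0.03), TgproNGF#3 at 1 month (-0.17), WT at 3 months (-0.39), WT at 12 months (-0.56) and TgproNGF#3 at 12 months (-1.98). Arrays of each neighbouring pair in that order overlapped, except the last pair. In bulk tissue, fewer cells of a type and less RNA per cell cannot be told apart.

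Slc6a12, the neighbouring gene, was lower in the same mice. At 12 months its levels were -5.09 and -5.15 in TgproNGF#3 replicates 1 and 3, against -3.25, -2.61 and -4.58 in the WT mice. TgproNGF#3 replicate 2 was not well above background for this probe and did not enter the fit. Both measured TgproNGF#3 arrays were below all WT arrays, the nearest of which was WT replicate 3, the WT array of slide row 2. The Log2 FC was -1.64 with an SE of 0.53 (n = 2 and 3, unadjusted p = 0.019, adjusted p = 0.549, limma). With the dim spot kept it was -2.21, and with slide row as a block it was -0.54 with an unadjusted p of 0.14, so this call was lost too. Without WT replicate 3 the Log2 FC was -2.19 and the adjusted p 0.037 in limma, and probes of the whole array with an adjusted p below 0.05 rose in number from 0 to 263 of 32534. That fit left all WT arrays in slide row 1 and all TgproNGF#3 arrays in row 2. Genotype and slide row cannot be told apart in it.

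At the younger ages Slc6a12 overlapped between genotypes. The 3-month levels were -2.47, -2.10, -3.60 and -2.29 in TgproNGF#3 mice and -3.37, -2.54, -2.89 and -3.42 in WT mice, a Log2 FC of 0.44 with a 95% confidence interval from -0.31 to 1.19. TgproNGF#3 replicate 3, the array lowest for Slc6a13 in that group, was also the lowest for Slc6a12, and without it the Log2 FC was 0.77 (unadjusted p = 0.011, adjusted p = 0.072, limma). At 1 month the levels ran from -3.36 to -2.12 and from -3.35 to -2.20, with a Log2 FC of 0.03. The genotype difference of Slc6a12 at 12 months was 2.08 log2 units lower than at 3 months, a value of -2.08 with an SE of 0.67 (adjusted p = 0.083, limma).

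Slc6a13 and Slc6a12 lie side by side on the plus strand of chromosome 6, at chr6:121300288-121337721 and chr6:121342574-121365773 in GRCm38.p6, with 4852 bases and 0 annotated genes between them. Over the 21 arrays with both values, deviations from the mean of each age had a Pearson r of 0.865. The age means were taken over both genotypes, so these deviations keep the genotype difference, here and below. The arrays also share slides, so each r is a description. RefSeq promoter windows in GRCm38.p6 were matched by symbol for 7 of the 8 genes, 15 windows in all. The 250 bases before the most upstream start of each of these neighbours, and before both starts of Slc12a5, are shown because their signals carried the called differences, and because KCC2 is made from alternative starts. Capitals mark matches on either strand to TGGAAA (the core bound by the tonicity factor TonEBP and by NFAT), the forkhead core TAAACA, the GC box with letters GGGCGG, the TATA box with letters TATAAA or the EGR site with letters GCGTGGGCG.
Slc6a13, chr6:121300038-121300287, plus strand: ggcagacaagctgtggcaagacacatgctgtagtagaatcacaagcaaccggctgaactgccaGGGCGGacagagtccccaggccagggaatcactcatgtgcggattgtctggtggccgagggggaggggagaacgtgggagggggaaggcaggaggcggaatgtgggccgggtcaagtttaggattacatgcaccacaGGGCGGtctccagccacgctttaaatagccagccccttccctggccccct
Slc6a12, chr6:121342324-121342573, plus strand: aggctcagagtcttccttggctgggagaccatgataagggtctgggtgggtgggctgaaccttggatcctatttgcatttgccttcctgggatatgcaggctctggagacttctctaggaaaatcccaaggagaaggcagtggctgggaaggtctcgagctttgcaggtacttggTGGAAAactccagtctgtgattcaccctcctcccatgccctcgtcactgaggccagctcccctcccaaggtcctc
Slc12a5 first start, chr2:164960596-164960845, plus strand: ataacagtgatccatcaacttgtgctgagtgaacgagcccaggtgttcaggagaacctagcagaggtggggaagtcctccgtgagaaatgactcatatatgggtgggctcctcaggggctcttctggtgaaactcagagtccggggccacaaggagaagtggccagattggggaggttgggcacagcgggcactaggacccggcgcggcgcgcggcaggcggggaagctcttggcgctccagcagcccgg
Slc12a5 second start, chr2:164967738-164967987, plus strand: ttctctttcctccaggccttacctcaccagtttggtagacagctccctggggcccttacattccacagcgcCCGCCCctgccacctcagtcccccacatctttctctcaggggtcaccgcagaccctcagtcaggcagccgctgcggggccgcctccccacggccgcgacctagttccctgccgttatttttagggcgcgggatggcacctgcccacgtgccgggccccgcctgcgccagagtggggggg
The Slc6a13 window held GGGCGG at 2 places, beginning 187 and 50 bases before the start, and the Slc6a12 window held TGGAAA once, 75 bases before its start. The pair of windows shown had no motif in common. RefSeq gives Slc6a13 further starts, and the window of start 3, not printed, held TGGAAA on the opposite strand, 72 bases before the start. The first Slc12a5 window had no match, and the second had GGGCGG once on the opposite strand, 179 bases before the start. Of 32851 RefSeq windows of the same 250 bases, 18.6% held TGGAAA, 12% TAAACA, 32.7% GGGCGG, 12.4% TATAAA and 0.536% GCGTGGGCG. A match is a string of letters and not a shown binding site.

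Most marker genes of leptomeningeal fibroblasts had a Log2 FC of the same sign as Slc6a13 at 3 and 12 months. Of 15 listed, 14 were measured, and each of these was well above background on all 22 arrays. At 12 months 13 of 14 had a Log2 FC below 0, with Dcn at 0.13, and the median was -1.03, beside 0.06 for all genes. Of the 14, 6 met the thresholds of the study as lower, where 0.992% of all probes did. None had an adjusted p below 0.05 in limma. At 3 months all 14 were above 0, with a median of 0.51, beside -0.05 for all genes. None met the thresholds of the study, where 6.76% of all probes did. Of the 14, 1, Islr, had an adjusted p below 0.05 in limma, where 8.43% of all probes did. At 1 month 11 of 14 were below 0 with a median of -0.34, beside 0.07 for all genes, and none had an unadjusted p below 0.05, while Slc6a13 was at -0.14. The summed level of the list ran from 3.09 to 3.97 in 12-month TgproNGF#3 mice and from 3.66 to 4.33 in WT mice, and at 3 months from 3.66 to 4.40 and from 3.33 to 3.99. At 1 month it ran from 3.39 to 4.78 and from 4.33 to 4.50. Deviations of Slc6a13 from the age means had an r of 0.691 with those of this sum over 22 arrays, and Slc6a12 an r of 0.51 over 21. With summed neuron markers, which were higher on every 12-month TgproNGF#3 array than on any WT array of that age, the r was -0.497 for Slc6a13 and -0.655 for Slc6a12, and with endothelial and mural markers it was 0.525 and 0.321. In the neuron sum at 12 months the WT array nearest to the TgproNGF#3 arrays was replicate 3, the control in their slide row. The part of these marker lists in the Slc6a13 and Slc6a12 results was not tested.

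**Figure D3:**
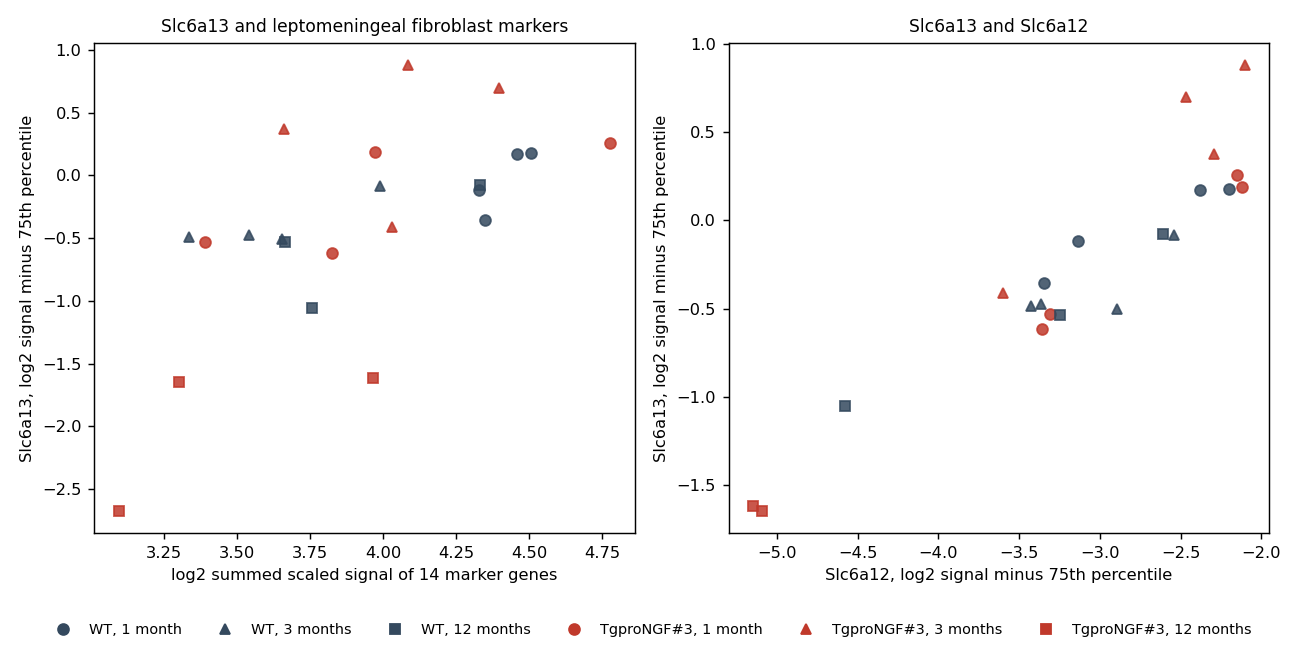
Level of Slc6a13 on each array (vertical axes, log2 signal minus the 75th percentile) against the log2 summed signal of 14 leptomeningeal fibroblast marker genes (left) and against the level of Slc6a12 (right), coloured by genotype and shaped by age; 22 arrays on the left and 21 on the right, where the array with Slc6a12 not well above background is left out. The 12-month TgproNGF#3 arrays are lowest for Slc6a13, at -1.62 and below.

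Choroid plexus markers varied far more between arrays than between genotypes. All 12 were well above background on all 22 arrays, all 12 had a Log2 FC below 0 at each age, and none had an unadjusted p below 0.05. Their summed level ran from 3.19 to 7.09 in 12-month TgproNGF#3 mice and from 3.35 to 7.63 in WT mice. Over 22 arrays, deviations of Slc12a4, Slc12a2 and Slc12a7 had an r of 0.783, 0.629 and 0.62 with those of this sum, and Slc6a13 an r of 0.205. The part of these markers in the member results was not tested.

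Of the 14506 genes with a value on every array, those whose deviations from the age means were most like those of Slc6a13 over 22 arrays were Aldh1a2 (r = 0.958), Gjb2 (0.930), Emp3 (0.926), Col9a2 (0.917) and Fmod (0.909). Aldh1a2, which makes retinoic acid, and Fmod, a matrix proteoglycan, were in the leptomeningeal list. Gjb2 encodes a connexin and Col9a2 a collagen chain. The deviations keep the genotype difference, so genes with like genotype differences rank high. The Log2 FC of Aldh1a2 and Fmod was 0.84 and 0.69 at 3 months and -1.55 and -1.85 at 12 months.

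The KCC2 gene Slc12a5 was lower in 3-month TgproNGF#3 mice on both of its probes, by very different amounts. On the brighter probe the levels were 4.33, 4.38, 4.31 and 4.36 in TgproNGF#3 mice and 4.81, 4.43, 4.68 and 4.64 in WT mice. The TgproNGF#3 arrays lay within 0.07 of each other and below all WT arrays. At that age 20.3% of all probes had groups that did not overlap, which fixes the exact permutation p at its smallest value. The Log2 FC was -0.29 with an SE of 0.13, so that the linear signal decreased by 18.4% (unadjusted p = 0.047, adjusted p = 0.178, limma), and the exact two-sided permutation test gave p = 0.029, the smallest for 4 against 4. With the percentile taken over all non-control spots, which moved the median of all probes from -0.12 to 0.00, the Log2 FC of this probe was -0.16 and the unadjusted p 0.30.

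On the dimmer probe the 3-month levels were -5.86, -4.24, -4.66 and -6.04 in TgproNGF#3 mice and -3.12, -3.93, -4.06 and -3.70 in WT mice. Again the groups did not overlap, and TgproNGF#3 replicates 1 and 4 were far below the others. The Log2 FC was -1.50 with an SE of 0.41 (unadjusted p = 0.0047, adjusted p = 0.053, limma), and the exact two-sided permutation test gave p = 0.029, which the lack of overlap fixes. Processed signals behind these levels were 52.6, 117, 72.9 and 53.9 against 200, 190, 101 and 179, all well above background. The arrays of replicates 1 and 4 also had the highest 75th percentiles of the slide, 11.6 and 11.8 on the log2 scale, and replicate 4 the smallest share of spots well above background, 57.6%. The part of array brightness in this value was not tested. The scanner files name the same RefSeq transcript for both probes and hold no probe sequence, so which part of it each one reads is not known here.

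At 1 and 12 months neither Slc12a5 probe met the thresholds of the study. At 12 months the brighter probe was 4.90, 5.07 and 5.21 in TgproNGF#3 mice and 4.62, 4.63 and 4.93 in WT mice, with a Log2 FC of 0.33, an SE of 0.16 and an unadjusted p of 0.067. TgproNGF#3 replicate 1 lay just below WT replicate 3, and the 2 groups overlapped only there. With slide row as a block the Log2 FC of the brighter probe was 0.13 and the unadjusted p 0.54, and summed neuron markers were higher on all 3 TgproNGF#3 arrays than on any WT array of that age. In that sum the nearest WT array was replicate 3, the control in the slide row of the TgproNGF#3 arrays. The dimmer probe had a 12-month Log2 FC of 0.07 with a 95% confidence interval from -0.31 to 0.44. At 1 month the Log2 FC was -0.08 (-0.59 to 0.42) on the brighter probe and -0.49 (-1.01 to 0.03) on the dimmer one. With the replicate number as a block, which pairs the 1-month samples, the dimmer probe had an unadjusted p of 0.041 in place of 0.063 and an adjusted p of 0.933 in limma.

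The signed Log2 FC of Slc12a5 moved up from 3 to 12 months on both probes, from -0.29 to 0.33 on the brighter and from -1.50 to 0.07 on the dimmer, without passing the adjusted threshold. The change was 0.63 log2 units with an SE of 0.26 on the brighter probe (unadjusted p = 0.024, adjusted p = 0.181, limma) and 1.56 with an SE of 0.48 on the dimmer one (unadjusted p = 0.0037, adjusted p = 0.066, limma). In the order of group means the brighter probe was highest in TgproNGF#3 mice at 12 months (5.06) and lowest in TgproNGF#3 mice at 3 months (4.35), with WT means of 4.93, 4.64 and 4.73 at 1, 3 and 12 months. Arrays of every neighbouring pair in that order overlapped, except the lowest pair, WT and TgproNGF#3 at 3 months. Deviations of the 2 probes from the age means had an r of 0.405 over 22 arrays.

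The genes most like the dimmer Slc12a5 probe over the 22 arrays were H2ac4 (r = 0.949), a histone gene, Cox6b1 (0.943), a subunit of cytochrome c oxidase, Rmrp (0.933), the RNA of an RNA-processing ribonucleoprotein, Lmo7 (0.932) and Stum (0.924). Neuron markers moved less with it, with an r of 0.535 between its deviations and those of the summed level of 7 markers. The genotype difference is part of these deviations too.

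Slc12a2, which encodes the chloride importer NKCC1, did not differ between genotypes beyond the spread of the arrays at any age. At 12 months its levels were 0.99, 1.23 and 1.31 in TgproNGF#3 mice and 1.17, 1.57 and 1.23 in WT mice, and the groups overlapped. The Log2 FC was 0.01 (95% confidence interval -0.47 to 0.50), -0.16 (-0.57 to 0.26) and -0.15 (-0.54 to 0.24) at 1, 3 and 12 months, so a 2-fold change lay outside each interval.

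The ratio of Slc12a5 to Slc12a2 signal on the same array sets the extruder against the importer, and the scaling of the array cancels in it. Its size depends on the brightness of the probes and is not read here, only its change with genotype. With the brighter Slc12a5 probe, the log2 ratio at 12 months was 3.92, 3.85 and 3.90 in TgproNGF#3 mice and 3.45, 3.06 and 3.70 in WT mice. All 3 TgproNGF#3 values lay above all WT values, and they differed little among themselves. The difference was 0.48 log2 units with an SE of 0.19, a ratio 1.40-fold that of WT (95% confidence interval -0.04 to 1.00). The exact two-sided permutation test gave p = 0.1, the smallest that 3 against 3 allow, and 0.3 after Benjamini-Hochberg adjustment over the 3 ages. With slide row as a block the difference was 0.19. Summed neuron markers were also higher on every 12-month TgproNGF#3 array, from 7.45 to 7.57 against 7.22 to 7.43 in WT mice. Of these markers 7 of 7 had a Log2 FC above 0, with a median of 0.16, beside 0.06 for all genes. WT replicate 3, the control in the slide row of the TgproNGF#3 arrays, was at 7.43, and WT replicates 1 and 2 were at 7.22 and 7.25. Deviations of the brighter Slc12a5 probe had an r of 0.571 with those of the neuron marker sum, and deviations of Slc12a2 an r of 0.629 with those of the choroid plexus marker sum. Their part in the ratio was not tested.

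At 3 months the log2 ratio was 2.83, 3.70, 3.16 and 3.37 in TgproNGF#3 mice and 3.59, 3.36, 3.28 and 3.38 in WT mice. The WT values lay inside the range of the TgproNGF#3 values, and the difference was -0.14 with a 95% confidence interval from -0.62 to 0.34 (exact permutation p = 0.51). At 1 month it was -0.10, from -0.84 to 0.64 (exact permutation p = 0.74), with single arrays from 2.59 to 3.52 and from 2.82 to 3.73. With the dimmer Slc12a5 probe in its place the differences were -0.50, -1.34 and 0.21 at 1, 3 and 12 months, and the exact permutation p at 3 months was 0.11.

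**Figure D4:**
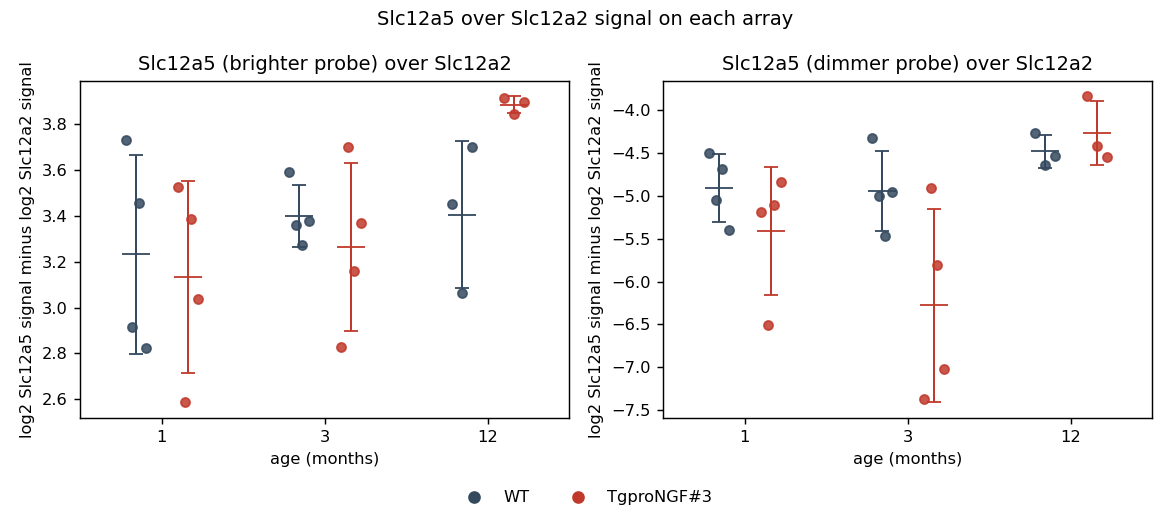
Log2 ratio of Slc12a5 to Slc12a2 signal on each array (vertical axis) against age in months, with the brighter Slc12a5 probe on the left and the dimmer on the right; points are mice, horizontal bars group means and whiskers 1 SD. The left panel shows the 12-month TgproNGF#3 values between 3.85 and 3.92, above all WT values of that age, and the genotypes overlap at 1 and 3 months.

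The other potassium-chloride cotransporter genes had an unadjusted p above 0.05 within each age. Slc12a4, which encodes KCC1, had a Log2 FC of -0.04, -0.02 and -0.20 at 1, 3 and 12 months, and each interval lay within -0.76 and 0.46. Slc12a7, which encodes KCC4, had 3-month levels of -1.94, -2.45, -2.41 and -2.87 in TgproNGF#3 mice and -3.20, -2.64, -2.60 and -2.82 in WT mice. TgproNGF#3 replicate 4 overlapped with the WT arrays, and the Log2 FC was 0.40 (-0.09 to 0.88). It was 0.52 with the percentile over all non-control spots and 0.54 without that replicate, with an unadjusted p of 0.017 and 0.024 and an adjusted p of 0.092 and 0.118 in limma. At 12 months the Log2 FC of Slc12a7 was -0.50 (-1.26 to 0.26), and without TgproNGF#3 replicate 3 it was -0.79 (unadjusted p = 0.033, adjusted p = 0.768, limma), while slide row as a block gave -0.27. Its genotype difference at 12 months was 0.90 log2 units lower than at 3 months, a value of -0.90 with an unadjusted p of 0.048 and an adjusted p of 0.265 in limma. Deviations of Slc12a7 had an r of 0.82 with the summed leptomeningeal markers over 22 arrays.

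The astrocyte transporter gene Slc6a11 was at -1.29, -1.79, -1.71 and -2.31 in 3-month TgproNGF#3 mice and at -1.61, -0.78, -1.003 and -1.44 in WT mice. TgproNGF#3 replicate 1 overlapped with the WT arrays, and the Log2 FC was -0.57 with an SE of 0.25 (unadjusted p = 0.049, adjusted p = 0.182, limma). The exact permutation p was 0.11. Astrocyte markers were below 0 for 6 of 7 at that age, with a median Log2 FC of -0.34, beside -0.05 for all genes. Of the 7, 2 had an unadjusted p below 0.05 in limma, where 27.2% of all probes did. None met the thresholds of the study, where 6.76% of all probes did. The summed level of the list ran from 6.19 to 6.44 in TgproNGF#3 mice and from 6.42 to 7.01 in WT mice. Over 22 arrays, deviations of Slc6a11 had an r of 0.242 with those of the astrocyte sum and of 0.308 with those of the choroid plexus sum. Their part in the Slc6a11 value was not tested. At 1 and 12 months the Log2 FC of Slc6a11 was -0.04 (-0.50 to 0.41) and -0.09 (-0.78 to 0.60). With slide row as a block the 12-month value was -0.68 with an unadjusted p of 0.061.

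Clcn2 gave like values on its 2 probes, whose deviations had an r of 0.826 over 22 arrays. On the brighter probe the 3-month levels were 0.84, 1.04, 0.90 and 0.78 in TgproNGF#3 mice and 0.72, 0.74, 0.45 and 0.73 in WT mice. The groups did not overlap, and the exact two-sided permutation p was 0.029. The difference was small, a Log2 FC of 0.23 with an SE of 0.13 (unadjusted p = 0.114, adjusted p = 0.292, limma). On the dimmer probe the groups overlapped, with a Log2 FC of 0.22 and an SE of 0.14. With the percentile taken over all non-control spots the values were 0.36 and 0.35, with an unadjusted p of 0.030 and 0.029 and an adjusted p of 0.125 and 0.124 in limma. At 12 months the values were 0.22 and 0.19, and at 1 month 0.05 and 0.02, with intervals that all included 0.

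Across ages, the genotype difference at 12 months against 3 months had an unadjusted p below 0.05 for 5 of 10 member probes, where 18.5% of all probes did. These were Slc6a13, Slc6a12, Slc12a7 and both Slc12a5 probes. For 3 months against 1 month 2 of 10 did, Slc6a13 (0.91) and the dimmer Slc12a5 probe (-1.01), against 14.9% of all probes, and 0 had an adjusted p below 0.05, against 2.87%. For 12 months against 1 month 2 of 10 did, Slc6a13 (-1.28) and Slc6a12 (-1.67), against 5.97%, and 0 had an adjusted p below 0.05, against 0% of all probes in the limma fit. The contrasts share groups and are not independent.

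Beyond the members, 31 genes of chloride and GABA handling were listed, of which 29, 27 and 27 could be tested at 1, 3 and 12 months. None met the thresholds of the study at 1 or 12 months. At 3 months 1 of 27 did, where 6.76% of all probes did, and 5 of 27 had an unadjusted p below 0.05, where 27.2% of all probes did. Oxsr1, which encodes a kinase that phosphorylates cation-chloride cotransporters, was lower in TgproNGF#3 mice. Its Log2 FC was -1.15 with an SE of 0.21 (adjusted p = 0.013, limma). Its partner kinase gene Stk39 had a Log2 FC of 0.04. Cab39, whose product binds these kinases, was at -0.43, Mlc1, which encodes an astrocyte membrane protein, at -0.40 and Aldh5a1, which acts in GABA breakdown, at -0.40, with unadjusted p values of 0.017, 0.023 and 0.033 and none below 0.05 after adjustment. The median Log2 FC of the genes tested was 0.05, 0.05 and 0.10 at 1, 3 and 12 months, beside 0.07, -0.05 and 0.06 for all genes.

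Gad1, which encodes a GABA-synthesising enzyme, had the smallest unadjusted p of this list at 12 months, 0.041, with a Log2 FC of 0.58 and an adjusted p of 0.549 in limma. At 3 months its Log2 FC was 0.63 (unadjusted p = 0.010, adjusted p = 0.078, limma), and the groups did not overlap. At 1 month the smallest unadjusted p was that of Oxsr1, 0.095, with a Log2 FC of 0.42.

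**Figure D5:**
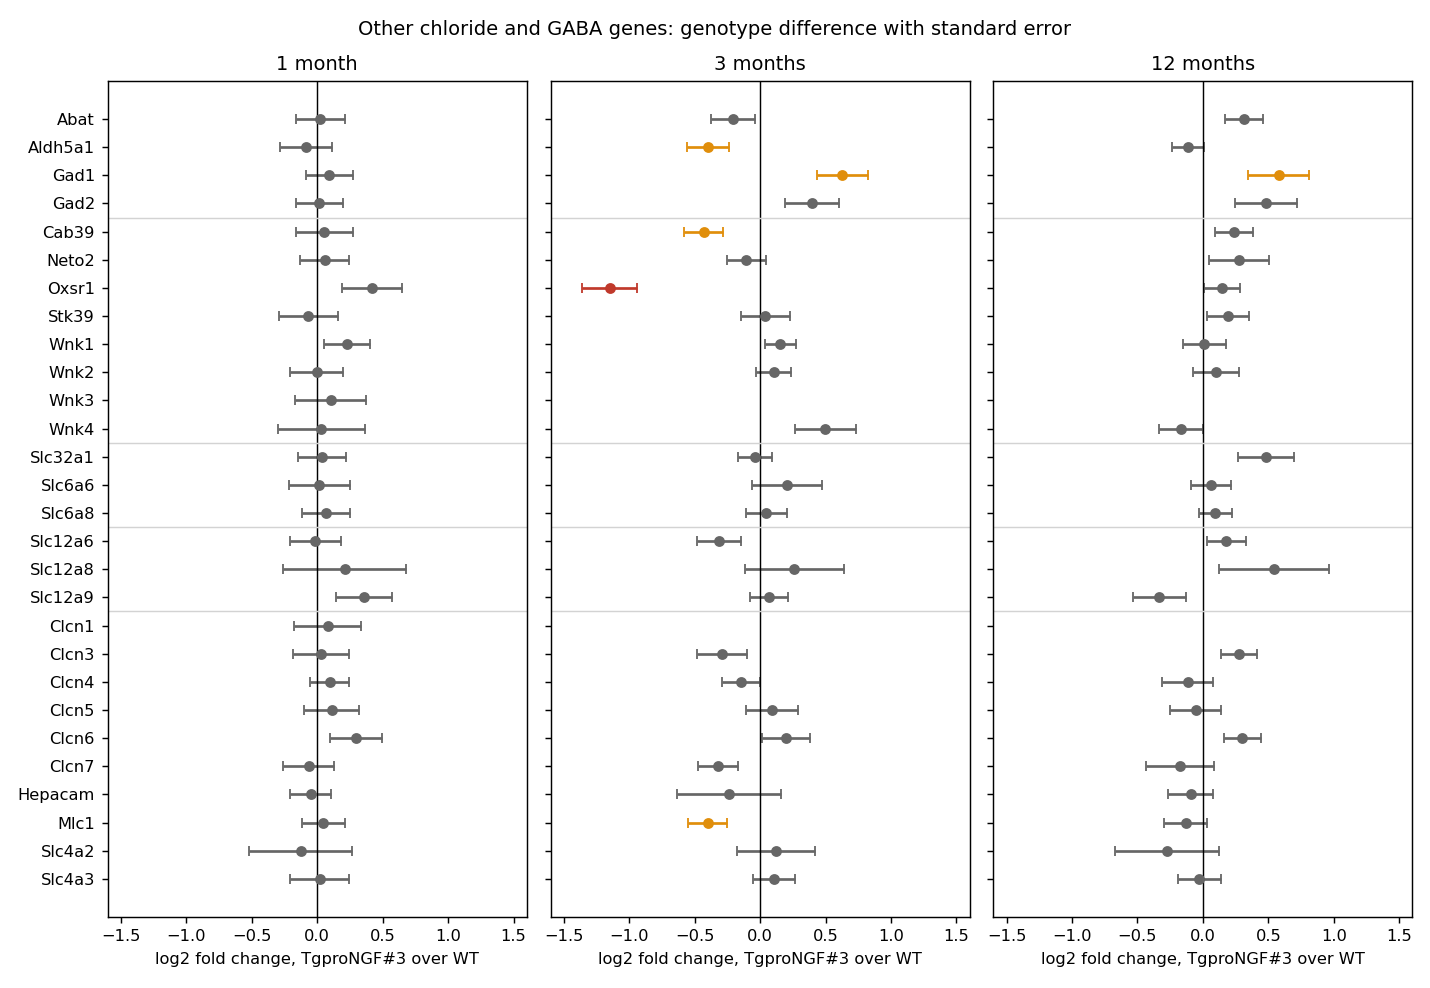
Log2 FC of TgproNGF#3 over WT (horizontal axis) with its standard error for the leading probes of other chloride and GABA genes, at 1, 3 and 12 months; grey lines part the 5 lists, from top to bottom GABA synthesis and breakdown, kinases and their partners, other GABA, taurine and creatine transporters, other cation-chloride cotransporters, and other chloride channels, partners and exchangers. Orange marks an unadjusted p below 0.05 and red the thresholds of the study, which Oxsr1 at 3 months met, at -1.15.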

How the data were processed

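Hippocampal RNA of 22 mice was measured on one-colour Agilent arrays of 62976 spots, 59305 of them non-control. The authors scanned the arrays and deposited the intensity values that Agilent Feature Extraction 10.7.3.1 wrote per spot, already background-subtracted. They also deposited log2 values for 28929 probes, filtered to those well above background and aligned to the 75th percentile, which were used as an alternative.

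Only non-control spots that the scanner software called well above background, and did not call outliers, were kept on each array. The processed intensity was log2-transformed, the 75th percentile of the spots kept was subtracted, and spots of a probe were averaged. A dropped spot is a missing value, so a probe that dims below background in one group loses arrays there. Probes were named through the RefSeq gene table, which gave 28026 of 55681 probes (50.3%) a symbol. TgproNGF#3 and WT samples of an age were fitted with limma 3.58.1 (R version 4.3.3; two-sided tests). A probe was tested if both groups had 2 values or more, with Benjamini-Hochberg adjustment over all probes tested. Genotype differences between ages came from a fit of all 6 groups. Ratios were compared with exact two-sided permutation tests. Alternatives were other scalings, background corrections and filters, the deposited log2 values, blocks for replicate number and slide row, and leaving out single samples. The scripts were tested on simulated data. All member probes are reported. Other pathway genes are named where they met the thresholds of the study or had the smallest p at an age, and the 5 genes most like a called member with a value on every array are named too. Cab39, Mlc1, Aldh5a1, Stk39 and Islr were named after their values were seen. Other listed genes enter the counts only, and 1 of them is not drawn in the plot of pathway genes. The members and lists were chosen with earlier results of these data known. The number of arrays limits the precision. With 1 array per mouse, the p-values set a difference against a spread in which mouse, RNA and array cannot be told apart. Those of the main fits take no account of slide row or column.

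Samples of both genotypes carry the same replicate numbers. Deviations of same-numbered samples from their group means correlated at 0.511, 0.272, 0.191 and 0.208 over 36103 probes at 1 month, so the numbers were taken to pair those samples. TgproNGF#3 replicate 4 of that age correlated best with WT replicate 2. Same-numbered 1-month samples also shared a slide row, so pairing and slide layout cannot be told apart. At 3 and 12 months same-numbered samples did not deviate together.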

Additional observations from a re-analysis of the deposited data

Results flagged for a closer look

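The genotype difference of Slc6a13 was 0.77 at 3 months and -1.42 at 12 months, and the change of -2.19 passed the test of the difference itself (SE 0.44, adjusted p = 0.0053 in the limma fit of all 6 groups). Slide row was not a block in that fit. Single samples stood far from the rest of their group in a pair of cases, both at 3 months. The Slc6a13 level of WT replicate 2 was -0.082, with the other WT samples from -0.50 to -0.48. On the brighter Clcn2 probe WT replicate 3 was at 0.45, with the others from 0.72 to 0.74. Chance marks about 1 in 20 such groups, and 48 groups of 4 samples were examined.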

How the results depend on the processing

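The 3-month call of the dimmer Slc12a5 probe (Log2 FC -1.82 to -1.22 without single samples) and the 12-month call of Slc6a13 (-1.67 to -1.08) kept their direction under each alternative run, and the call of Slc6a13 was lost with slide row as a block alone. Without TgproNGF#3 replicate 1 or 3, Slc6a12 had a single TgproNGF#3 value at 12 months and was not tested. At 12 months the number of members past the thresholds was 1 among probes well above background on every array and 1 with the authors' log2 values, where Slc6a12 was not tested, 0 with slide row as a block, and 1 to 2 without single samples. At 3 months it was 2 at a fold change of 1.5, and 1 to 2 without single samples. The number with an adjusted limma p below 0.05 at 3 months was 1, the dimmer Slc12a5 probe, with the percentile over all spots, with the median, with the authors' log2 values and in 1 fit of all 22 arrays, and 0 to 2 without single samples, being 1 without TgproNGF#3 replicate 2 and 2 without replicate 3. At 12 months it was 0 to 1, the 1 being Slc6a12 without WT replicate 3, where genotype and slide row coincide and cannot be told apart. Members whose genotype difference changed from 3 to 12 months numbered 2 with the median and 1 to 3 without single samples, more than 1 without TgproNGF#3 replicate 2 (2) or 3 (3) of 3 months or WT replicate 3 of 12 months (2). The Slc6a13 change stayed between -2.46 and -1.85 under the alternatives run for it. Slide row as a block was not among them. The unadjusted p of the brighter Slc12a5 probe at 3 months lay above 0.05 without any single sample other than WT replicate 2, with the Log2 FC from -0.36 to -0.24. Scaling to the median moved the median Log2 FC of all probes at 12 months from 0.01 to 0.16, and the percentile over all spots moved it at 3 months from -0.12 to 0.00. The causes of these shifts were not tested.

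Small values changed sign, none of them called. At 1 month keeping dim spots gave Slc6a12 -0.032, Clcn2 -0.012 and -0.048 and Slc12a2 -0.049. The percentile over all spots gave Slc6a12 -0.035, Clcn2 -0.015 and -0.051 and Slc12a2 -0.052. The median gave Slc6a11 0.011 and Slc12a4 0.012, quantile normalization gave the dimmer Clcn2 probe -0.0055 and normexp -0.011, and the authors' log2 values gave Clcn2 -0.013 and -0.049 and Slc12a2 -0.050. At 3 months Slc12a4 was 0.11 with dim spots kept, 0.11 with the percentile over all spots, 0.020 with the median, 0.014 with normexp and 0.062 with the authors' log2 values. At 12 months the median gave Slc6a11 0.060 and Slc12a2 0.0019, normexp gave the dimmer Slc12a5 probe -0.027, the authors' log2 values gave it -0.015, and slide row as a block gave Slc12a4 0.027. Without single samples the 1-month ranges were -0.19 to 0.043 for Slc6a11, -0.17 to 0.24 for Slc6a12, -0.14 to 0.23 for Slc12a7, -0.29 to 0.0045 for Slc6a13, -0.20 to 0.072 for the brighter Slc12a5 probe, -0.044 to 0.089 for the dimmer Clcn2 probe, -0.22 to 0.074 for Slc12a4 and -0.16 to 0.14 for Slc12a2. They were -0.20 to 0.13 for Slc12a4 at 3 months, and -0.42 to 0.21 for Slc6a11, -0.38 to 0.016 for Slc12a4 and -0.053 to 0.14 for the dimmer Slc12a5 probe at 12 months. The log2 ratio difference ran from -0.23 to 0.084 at 1 month, from -0.28 to 0.0087 at 3 months and from 0.31 to 0.63 at 12 months.

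With the replicate number as a block, 0, 1 and 2 members met the thresholds at 1, 3 and 12 months, none had an adjusted p below 0.05, and the log2 ratio differences were -0.10, -0.14 and 0.48. The block changed no other member call, while probes of the whole array with an adjusted p below 0.05 at 3 months numbered 794 in place of 2831. At 3 and 12 months the same-numbered samples did not deviate together (r from -0.356 to 0.0503). Dim probes limit what can be read of Slc6a12 and the dimmer Slc12a5 probe, and normexp used the median spot signals.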
